A study of Mus musculus with 4 samples.

Results

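The genes of the collagens, laminins, integrins and ADAMTS matrix proteases were compared in their RNA level between neural tube cells with and without a working copy of *Prdm13*. They were all rows of the deposited table with a symbol of the collagen (Col), laminin (Lama, Lamb, Lamc), integrin (Itga, Itgb), Adamts or Adamtsl pattern, with *Ccbe1* added, and came to 106 of 24421 genes. Cells sit in a meshwork of secreted proteins, the extracellular matrix. Collagens and laminins build it, each from chains that join in sets of fixed make-up, and under an epithelium they form the basement membrane. Integrins are receptors in the cell membrane that pair an alpha with a beta subunit and bind this matrix, and proteases of the ADAMTS family trim it, several of them by cutting the large proteoglycans aggrecan, brevican and versican. In the neural tube the basement membrane lies at the outer face, where the end feet of progenitors attach.

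RNA was taken from GFP+ cells of the neural tubes of mouse embryos of 2 genotypes. The allele in both genotypes was *Prdm13 GFP*, in which a zinc-finger nuclease placed GFP with a stop codon in the first exon of *Prdm13*, a gene for a repressor of transcription in dorsal neural progenitors. The *Prdm13 GFP/+* embryos (heterozygous, the controls) kept a working copy, and the *Prdm13 GFP/GFP* embryos (homozygous) had none. Both came from a mixed ICR and C57Bl/6 background into which separate founder strains had been bred, and were taken at E11.5. GFP+ cells were sorted from neural tubes dissociated with trypsin, and the RNA of several embryos was joined into 1 pool per genotype. The polyadenylated RNA of each pool was made into 2 libraries, 4 in all. No wild-type embryos were in this comparison, so the controls carry 1 disrupted allele too. The 2 libraries of a pool repeat the same RNA, so they are technical replicates, and every SD and p-value below holds the spread of library preparation and sequencing alone, with no difference between embryos in it.

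Levels are given as RPKM, the reads on a gene scaled to the length of its exons and to the size of the library, so they can be compared between genes. The libraries held an effective 11572778 to 18323396 reads, recovered from the steps of the RPKM values. The level of *Prdm13* itself was 114 and 127 RPKM in the heterozygous and 309.5 and 324 RPKM in the homozygous libraries, a log2 fold change of 1.40 (standard error, SE, 0.0613, adjusted p = 3.63e-05 in limma's test over all genes). The knock-in adds a sequence and removes no exon, so this level does not check the labels. Neural progenitor genes were abundant in every library, with *Vim* at 932 to 986 RPKM, and so were neuronal genes, with *Tubb3* at 1017 to 1372 RPKM. Of 6 progenitor markers 1, *Sox1*, was called lower, at 14.6 ± 0.871 against 9.04 ± 0.0251 RPKM (SD, n = 2 libraries each), and of 6 neuron markers 1, *Stmn2*, was called higher, at 189 and 189 against 293 and 283 RPKM. The summed level of the neuron markers ran from 1627 to 1673 RPKM in the heterozygous and from 1994 to 2075 RPKM in the homozygous libraries. Most of this sum was *Tubb3*. Of the neuron markers 4 had a positive log2 fold change and 2 a negative one, *Dcx* at -0.07 and *Map2* at -0.16. The summed level of the progenitor markers overlapped, from 1911 to 1970 and from 1881 to 1935 RPKM, and 3 markers of this list had a positive and 3 a negative log2 fold change. Most of that sum was *Vim* and *Fabp7*. *Sox2* passed limma's test short of a 1.5-fold change, lower at 150 and 163 against 111 and 113 RPKM (log2 fold change -0.48, adjusted p = 0.00214). *Pax6* did so too, but higher, at 18.4 and 18.4 against 21.5 and 22.6 RPKM (0.26, adjusted p = 0.0202). In sorted bulk cells, a lower level can come from fewer cells of a type or from less RNA in each cell, and these cannot be told apart.

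All 106 members were above 0 in at least 1 library, but many were low. In 11 of them no library held more than 3 reads, and 38 stayed under 20 reads in every library. A mean of at least 1 RPKM in either genotype was reached by 43 members, which were tested, and 63 were not tested. To be called, a gene had to pass both an adjusted p of 0.05 in limma's test (Benjamini-Hochberg over all genes tested) and a 1.5-fold change on log2(RPKM + 0.1), a scale that understates the change of low genes. By that rule 5 members were called higher and 5 lower in the homozygous cells, which is 23.3% of the 43 tested. Of those called, *Adamts5* passed the filter through the homozygous libraries alone, and *Col6a4* and *Adamts9* through the heterozygous ones alone. A low gene can thus be tested because it differs, and the part of this in the counts and sizes of change was not tested. Over all 12046 genes tested, 6.33% were called, 3.65% higher and 2.67% lower. The median change of the members was -0.01 on the log2 scale, with quartiles of -0.20 and 0.39, against 0.01 over all genes tested, with quartiles of -0.12 and 0.13. The members thus did not lean to one side, while the size of their change without sign had a median of 0.31 against 0.13 over all genes. The members were also lower than most genes, with a median of 2.58 RPKM in the heterozygous and 3.59 in the homozygous libraries against 12.7 and 12.5 for all genes tested. Their 2 libraries of a genotype differed by a median of 0.10 (heterozygous) and 0.08 (homozygous) on the log2 scale, against 0.08 and 0.08 over all genes.

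**Figure D1:**
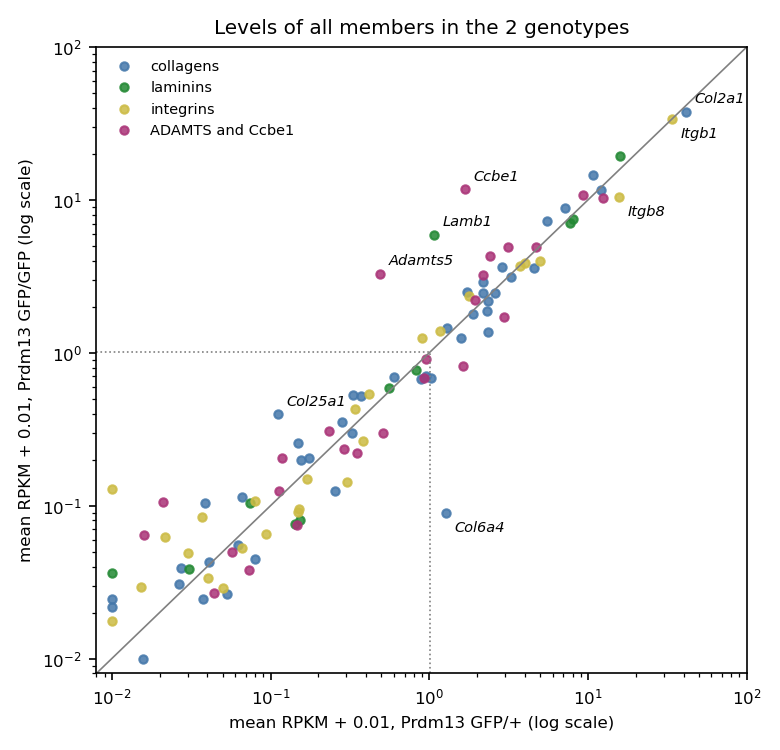
Mean RPKM plus 0.01 of each of the 106 members in the heterozygous (horizontal) and homozygous (vertical) libraries, both on log scales, coloured by family. Members on the grey line have equal levels, and those inside the dotted corner, under 1 RPKM in both genotypes, were not tested. *Ccbe1*, *Lamb1* and *Adamts5* lie above the line and *Col6a4* lies far below it.

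Among 44 collagens 20 were tested, and 2 were called lower and 0 higher. Of the 11 laminin chains 4 were tested and 1 was called higher. Of the 26 integrin subunits 8 were tested and 1 was called lower. The ADAMTS proteases, their ADAMTS-like relatives and *Ccbe1* made up 25 members, of which 11 were tested, 4 called higher and 2 lower. Whether the share of calls differs between the families was not tested. Without regard to fold, 18 of the 43 members had an adjusted p under 0.05, beside 19.7% of all genes, and the libraries of the genotypes did not overlap in 33 members (76.7%), beside 62.1% of all genes. The homozygous libraries were the higher ones in 19 of these, beside 31.7% of all genes, and the lower ones in 14, beside 30.3%.

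**Figure D2:**
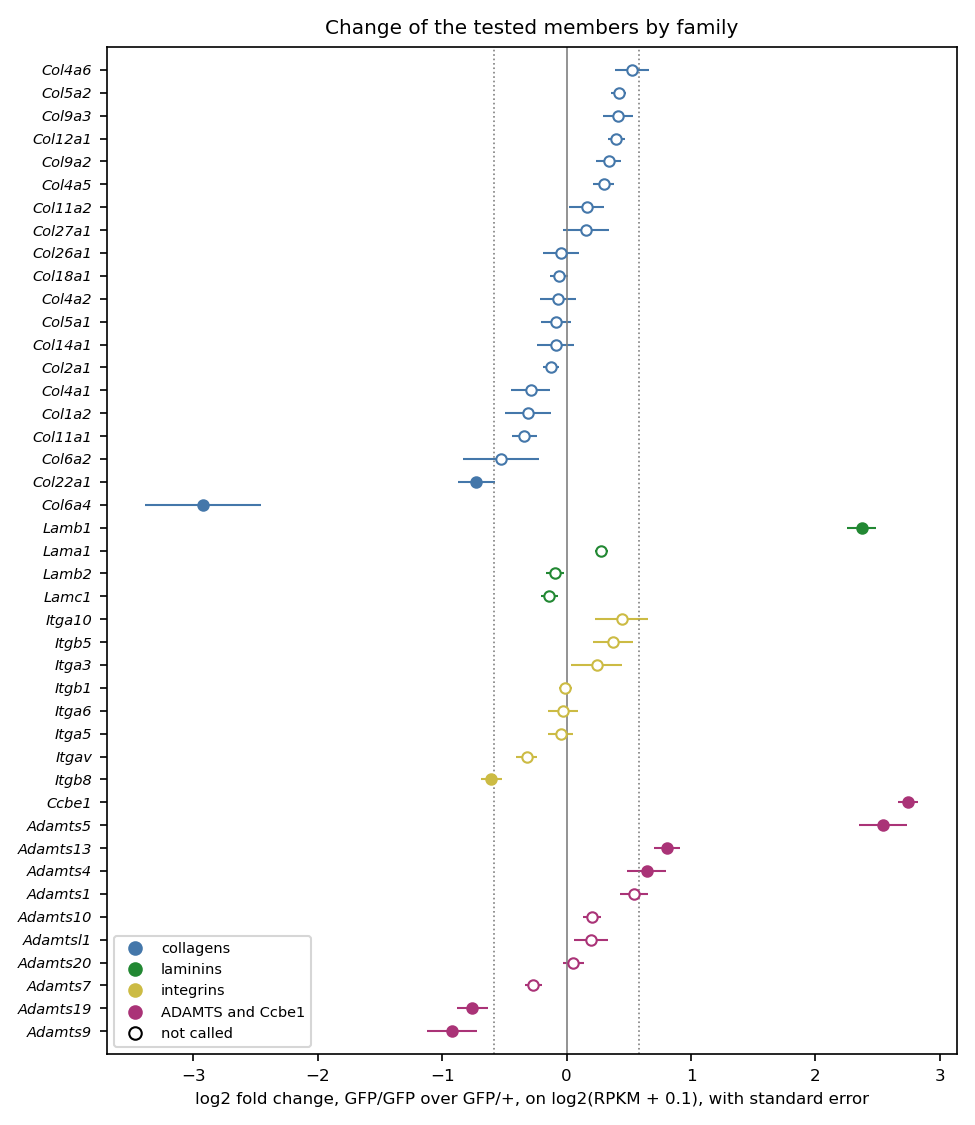
Log2 fold change (homozygous over heterozygous, on log2(RPKM + 0.1)) with its standard error for the 43 members tested, ordered by family and size. Filled points were called, open points were not, and dotted lines mark a fold of 1.5 in either direction. The collagens other than *Col6a4* and *Col22a1* lie within these lines, while *Lamb1*, *Ccbe1* and *Adamts5* lie above 2 on this scale.

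Laminins are trimers of an alpha, a beta and a gamma chain, and the trimer of alpha 1, beta 1 and gamma 1 is that of the early basement membrane. *Lamb1*, the gene of the beta 1 chain (GRCm38 chromosome 12, 31265146 to 31329644), was at 1.11 and 1.02 RPKM in the heterozygous libraries and at 6.06 and 5.77 RPKM in the homozygous libraries. These levels rest on 74 and 108 reads and on 569 and 456 reads, and the genotypes were far apart. Its mean rose from 1.06 ± 0.0612 to 5.91 ± 0.203 RPKM (SD, n = 2 libraries each), 5.56-fold, and its log2 fold change was 2.37 (SE 0.117, adjusted p = 6.16e-05).

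The other laminin chains tested were not called. *Lamb2*, the gene of the beta 2 chain, which takes the place of beta 1 in other trimers, was at 7.90 and 8.16 RPKM against 7.24 and 7.83 RPKM, with a log2 fold change of -0.09 (SE 0.0717, adjusted p = 0.414). *Lamc1*, the gene of the gamma 1 chain, was at 7.64 and 7.84 RPKM against 7.02 and 7.03 RPKM, a log2 fold change of -0.14 (SE 0.0656, adjusted p = 0.195). *Lama1*, the gene of the alpha 1 chain and the highest laminin tested, was at 16.1 and 16.0 RPKM against 19.4 and 19.4 RPKM. The genotypes did not overlap, with a log2 fold change of 0.28 (SE 0.0521, adjusted p = 0.014), which passed the test and not the fold. *Lama1* made up 91.2 to 91.4% of the summed alpha chain RPKM in the heterozygous and 93.0 to 93.3% in the homozygous libraries. The share of *Lamb1* in the sum of *Lamb1* and *Lamb2* was 12.3% and 11.1% in the heterozygous libraries and 45.6% and 42.4% in the homozygous libraries. A comparison of 2 with 2 libraries cannot give a p below 0.333 in an exact two-sided permutation test, so such shares are given without a test. The 7 laminin chains that were not tested stayed under 1 RPKM in every library.

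**Figure D3:**
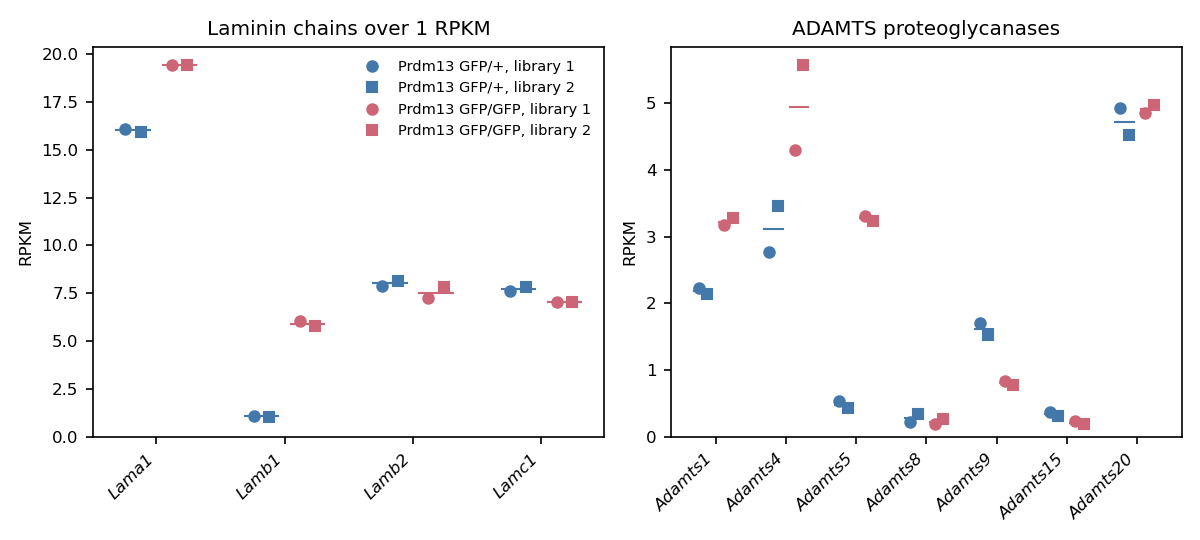
RPKM of the 4 laminin chains tested (left) and of the 7 ADAMTS proteoglycanases (right) in each library, on linear axes from 0, with points for libraries and bars for the mean of a genotype. *Lamb1* rises to near the level of *Lamb2* and *Lamc1* in the homozygous libraries, and *Adamts5* rises to the level of *Adamts1*, while *Adamts9* falls.

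*Col2a1*, the chain of the type II fibril of cartilage and notochord, was the highest of all members, at 39.2 and 43.4 RPKM against 37.3 and 38.3 RPKM, with a log2 fold change of -0.12 (SE 0.0621, adjusted p = 0.218). It made up 35.5 and 36.3% of the summed collagen RPKM in the heterozygous and 32.2 and 32.7% in the homozygous libraries. Of 11 fibrillar collagens 7 were tested and 0 were called by limma or by limma voom on recovered reads, with 2 at an unadjusted p under 0.05. *Col5a2*, a chain of the type V collagen that sets the width of fibrils, passed the test short of the fold, at 10.5 and 11.1 RPKM against 14.3 and 14.6 RPKM (log2 fold change 0.42, SE 0.0611, adjusted p = 0.00564). The chains of type I collagen, the main fibril of mesenchyme and bone, were low, with *Col1a2* at 1.16 to 1.70 RPKM over the 4 libraries.

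Type IV collagen forms the sheet of the basement membrane, and its chains are made from gene pairs that share a start region. The pair *Col4a1* and *Col4a2* on chromosome 8 differed by less than the test could resolve: *Col4a1* was at 2.05 and 2.57 RPKM against 1.81 and 1.92 RPKM (log2 fold change -0.29, SE 0.156, adjusted p = 0.252), and *Col4a2* at 1.94 and 1.80 RPKM against 1.81 and 1.74 RPKM (-0.07, SE 0.144, adjusted p = 0.769). The pair *Col4a5* and *Col4a6* on chromosome X, whose genes lie 1274 bases apart, passed the test short of the fold and were both higher. *Col4a5* was at 7.11 and 7.28 RPKM against 9.45 and 8.31 RPKM (0.30, SE 0.0812, adjusted p = 0.0476). *Col4a6* was at 1.69 and 1.72 RPKM against 2.65 and 2.35 RPKM (0.52, SE 0.136, adjusted p = 0.0414). For both genes the lowest homozygous library lay above the highest heterozygous one, and the difference between the pairs was not tested.

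Type VI collagen makes beaded filaments near cell surfaces from an alpha 1 and an alpha 2 chain with a longer chain, which is alpha 3 or one of its relatives. *Col6a4*, the gene of such a relative (chromosome 9, 105990318 to 106096828), was at 1.43 and 1.11 RPKM in the heterozygous and at 0.0909 and 0.0688 RPKM in the homozygous libraries, from 123 and 151 reads and from 11 and 7 reads. Its mean was 15.9 times higher in the heterozygous libraries, with a log2 fold change of -2.92 (SE 0.463, adjusted p = 0.00773). With a pseudocount of 1 the log2 fold change was -1.07 and with 0.01 it was -3.83, so its size relative to other members depends on that choice. It shares 1.49% and 1.90% of its exon bases with a pair of genes on the opposite strand. Its neighbours in the same cluster, *Col6a5* and *Col6a6*, lie 27.9 kb and further away and held at most 4 reads in any library. *Col6a2*, the gene of the alpha 2 chain, had 104 and 114 reads against 70 and 78 reads and did not pass (log2 fold change -0.53, SE 0.304, adjusted p = 0.274). *Col6a1* and *Col6a3*, which were not tested, had 7 to 13 reads and 1 to 15 reads. Thus *Col6a4* was the only type VI chain beside *Col6a2* above 1 RPKM in any library.

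Fibril-associated collagens sit on the surface of fibrils and do not form them. *Col22a1*, the gene of a chain known from tissue junctions (chromosome 15, 71795795 to 72150979), was at 2.27 and 2.37 RPKM against 1.29 and 1.43 RPKM, a log2 fold change of -0.73 (SE 0.148, adjusted p = 0.0187). The genotypes did not overlap, but the call did not hold when any 1 of the 4 libraries was left out, with adjusted p from 0.0705 to 0.0821. *Col12a1*, the highest of this group, passed the test short of the fold, at 5.43 and 5.54 RPKM against 7.25 and 7.28 RPKM (log2 fold change 0.40, SE 0.0692, adjusted p = 0.0107). *Col18a1*, the basement membrane collagen that carries endostatin at its end, was at 12.1 ± 0.879 RPKM against 11.6 ± 0.263 RPKM (SD, n = 2 libraries each; log2 fold change -0.06, SE 0.0706, adjusted p = 0.586). *Col26a1*, the highest of the remaining collagens, ranged from 2.81 to 3.67 RPKM (-0.04, SE 0.145, adjusted p = 0.87).

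Integrin alpha and beta subunits reach the surface as pairs, and beta 1 pairs with most alpha subunits. *Itgb1*, the second highest member, was at 34.8 and 33.2 RPKM against 34.0 and 33.5 RPKM, with a log2 fold change of -0.01 (SE 0.0513, adjusted p = 0.928). Its alpha partners for laminin and fibronectin were not called: *Itga6* had a log2 fold change of -0.03 (SE 0.12, adjusted p = 0.886), *Itga5* of -0.05 (SE 0.102, adjusted p = 0.78) and *Itga3* of 0.24 (SE 0.203, adjusted p = 0.444). *Itga10*, a collagen receptor, was at 0.943 and 0.844 RPKM against 1.22 and 1.28 RPKM (0.44, SE 0.214, adjusted p = 0.203).

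*Itgb8*, which pairs with alpha v and is known from neural progenitors for releasing active TGF-beta (chromosome 12, 119162803 to 119238276), was the integrin called. Its level was 15.3 and 16.3 RPKM in the heterozygous and 9.60 and 11.1 RPKM in the homozygous libraries, so that the genotypes did not overlap, and its log2 fold change was -0.60 (SE 0.0842, adjusted p = 0.00485). The value lies near the fold limit of 0.58. Without heterozygous library 2 it was -0.56 (adjusted p = 0.0604) and without homozygous library 1 it was -0.50 (adjusted p = 0.036), both short of the call. *Itgav*, the gene of its partner alpha v and the highest alpha subunit, was at 5.11 and 4.90 RPKM against 3.99 and 3.98 RPKM, lower by the test and short of the fold (-0.32, SE 0.0824, adjusted p = 0.0396). *Itgb5*, another partner of alpha v, had values of 1.63 and 1.93 RPKM against 2.57 and 2.12 RPKM (0.38, SE 0.162, adjusted p = 0.159). The share of *Itgb8* in the summed beta subunit RPKM was 29.3 and 31.4% in the heterozygous and 20.7 and 23.6% in the homozygous libraries, and that of *Itgb1* was 66.8 and 64.1% against 73.3 and 71.3%. *Itgb2*, the beta 2 subunit of leukocytes, had at most 2 reads in any library, and its alpha partners *Itgal*, *Itgam*, *Itgax* and *Itgad* had at most 3, 5, 1 and 7.

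Of the 19 ADAMTS proteases 9 were tested and 5 were called (55.6%), beside 6.33% of all genes tested. These were 5 of the 10 calls, and those of *Adamts4*, *Adamts9* and *Adamts19* were lost when some single libraries were left out. Of the 7 proteoglycanases, which cut lecticans such as versican, 5 were tested, 2 called higher and 1 lower (60% of those tested). Both shares include *Adamts5*, which passed the filter through the homozygous libraries alone, and *Adamts9*, which passed it through the heterozygous ones alone. The part of this in the shares was not tested. *Adamts5* (chromosome 16, 85858157 to 85901125) was at 0.533 and 0.431 RPKM in the heterozygous and at 3.31 and 3.24 RPKM in the homozygous libraries, from 50 and 64 reads and from 436 and 359 reads. The mean rose 6.79-fold, and its log2 fold change was 2.54 (SE 0.193, adjusted p = 0.00042). *Adamts1*, whose gene lies 55.0 kb away on the same chromosome and whose product cuts the same substrates, was at 2.23 and 2.13 RPKM against 3.17 and 3.28 RPKM. Its libraries did not overlap between genotypes either, and it passed the test short of the fold (0.54, SE 0.111, adjusted p = 0.0187). Whether the neighbours differ in their change was not tested.

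*Adamts4*, the other aggrecanase (chromosome 1, 171250129 to 171262267), was at 2.78 and 3.46 RPKM against 4.30 and 5.57 RPKM, a log2 fold change of 0.64 (SE 0.158, adjusted p = 0.0344). Its libraries were the widest spread of those called higher, and the call did not hold without any 1 of the 4 libraries (adjusted p 0.0555 to 0.216), without the trend (0.0882) or with a pseudocount of 1 (log2 fold change 0.52). *Adamts9*, a versican-cutting protease (chromosome 6, 92772699 to 92944450), went the other way, at 1.70 and 1.53 RPKM against 0.836 and 0.775 RPKM (-0.92, SE 0.203, adjusted p = 0.0242). It shares 9.18% of its exon bases with *A730049H05Rik* and 2.82% with *Gm15737* on the other strand. Its call did not hold without heterozygous library 1 (adjusted p = 0.0903), homozygous library 1 (0.0697) or homozygous library 2 (0.0895), and held without heterozygous library 2.

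*Adamts20*, the highest proteoglycanase in the heterozygous libraries, was at 4.93 and 4.52 RPKM against 4.85 and 4.97 RPKM (0.06, SE 0.085, adjusted p = 0.687). In the sum of the 7 proteoglycanases, *Adamts5* made up 4.18 and 3.38% in the heterozygous and 19.6 and 17.7% in the homozygous libraries. Over the same libraries *Adamts20* went from 38.6 and 35.5% to 28.7 and 27.2%, and *Adamts9* from 13.4 and 12.0% to 4.94 and 4.24%. The sum itself was 12.7 and 12.7 RPKM in the heterozygous and 16.9 and 18.3 RPKM in the homozygous libraries.

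Of the other ADAMTS proteases, *Adamts13*, which cleaves von Willebrand factor in blood (chromosome 2, 26973361 to 27009625), rose from 2.40 ± 0.0346 to 4.27 ± 0.325 RPKM (SD, n = 2 libraries each), from 138 and 223 reads to 368 and 278 reads, a log2 fold change of 0.81 (SE 0.106, adjusted p = 0.00391). *Adamts19*, a protease whose substrates are little known, was at 3.04 and 2.87 RPKM against 1.71 and 1.69 RPKM (-0.76, SE 0.124, adjusted p = 0.00862). The call of *Adamts19* did not hold without heterozygous library 1, homozygous library 1 or homozygous library 2, with adjusted p of 0.0573, 0.0502 and 0.0645, and that of *Adamts13* held without any of the 4. *Adamts7*, the highest of these proteases, was at 12.1 and 12.9 RPKM against 10.1 and 10.6 RPKM, lower by the test and short of the fold (-0.27, SE 0.0663, adjusted p = 0.0361). *Adamts10*, a binder of fibrillin, was at 9.04 and 9.49 RPKM against 10.2 and 11.2 RPKM (0.20, SE 0.0716, adjusted p = 0.0964).

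*Ccbe1* encodes a secreted protein with collagen repeats that helps ADAMTS3 cut the growth factor VEGF-C into its active form, a step known from lymphatic vessels. It was at 1.63 and 1.72 RPKM in the heterozygous and at 11.9 and 11.7 RPKM in the homozygous libraries, from 108 and 181 reads and from 1109 and 915 reads. The mean went from 1.67 ± 0.0672 to 11.8 ± 0.162 RPKM (SD, n = 2 libraries each), 7.03-fold, with a log2 fold change of 2.74 (SE 0.0837, adjusted p = 9.59e-06). Of its exon bases 2.95% are shared with *Gm15958* on the opposite strand.

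The other genes of this axis were not called. *Adamts3*, under the filter and untested, was at 0.981 and 0.855 RPKM against 0.698 and 0.658 RPKM. *Vegfc*, the substrate, was at 5.10 and 4.96 RPKM against 3.14 and 3.61 RPKM, lower by the test and just short of the fold (-0.56, SE 0.101, adjusted p = 0.012). Of the receptors, *Nrp2* was at 7.27 and 7.61 RPKM against 9.73 and 9.38 RPKM (0.36, SE 0.0662, adjusted p = 0.0134), while *Flt4* (VEGFR-3) was at 0.206 to 0.376 RPKM and *Figf* (VEGF-D) at 0.0362 to 0.171 RPKM over the 4 libraries.

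**Figure D4:**
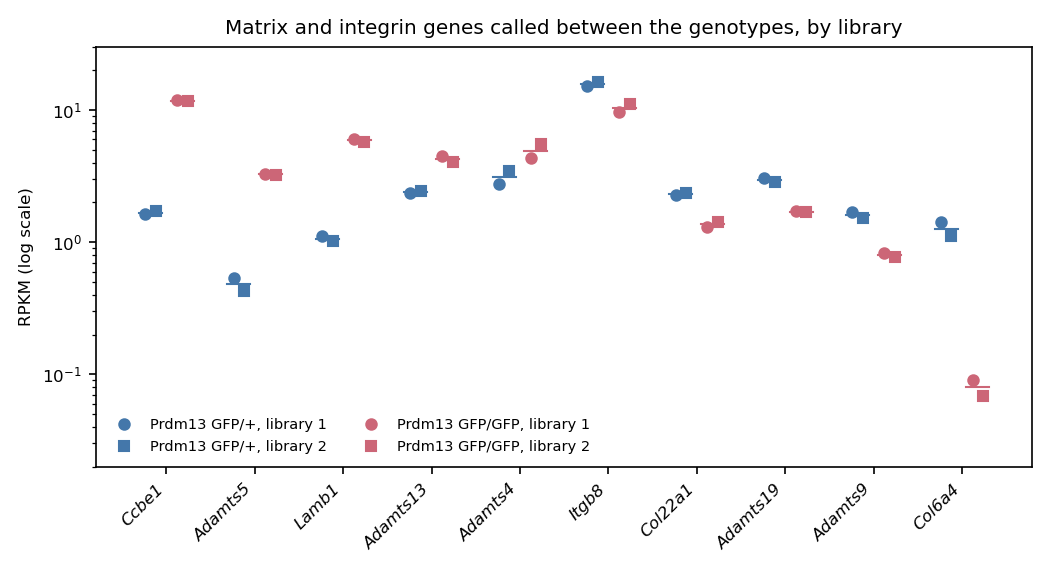
RPKM on a log scale of the 10 members called, in each of the 4 libraries, with bars at the mean of each genotype and members ordered by fold change. *Ccbe1*, *Adamts5* and *Lamb1* show the widest gaps upward and *Col6a4* the widest gap downward, and the genotypes do not overlap in any of the 10.

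The sequence before the start of the called members is shown because PRDM13 works beside basic helix-loop-helix factors, which bind the E-box, CANNTG. RefSeq promoters (GRCm38.p6) were at hand for 72 of the 106 members and for 5 of the 10 called. *Ccbe1*, *Adamts5*, *Adamts4*, *Adamts19* and *Col22a1* had no entry. The 250 bases before the start that RefSeq lists there are given from 5′ to 3′ on the strand of the gene, with E-boxes in capitals. For *Lamb1*, *Adamts13*, *Adamts9* and *Col6a4* that start lies inside the outer bounds of the gene given above, so the window runs into those bounds, and for *Adamts9* it lies wholly within them.
Lamb1, chr12:31265043-31265292, plus strand: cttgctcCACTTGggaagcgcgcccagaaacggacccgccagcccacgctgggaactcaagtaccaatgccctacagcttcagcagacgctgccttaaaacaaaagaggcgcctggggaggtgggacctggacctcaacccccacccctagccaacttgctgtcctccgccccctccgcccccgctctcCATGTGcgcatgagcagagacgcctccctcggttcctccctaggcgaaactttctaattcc
Adamts13, chr2:26973166-26973415, plus strand: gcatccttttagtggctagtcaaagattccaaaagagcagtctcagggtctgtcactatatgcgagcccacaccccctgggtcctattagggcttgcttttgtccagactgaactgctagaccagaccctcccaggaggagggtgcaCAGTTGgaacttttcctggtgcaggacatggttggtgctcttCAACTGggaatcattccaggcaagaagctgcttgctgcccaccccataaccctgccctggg
Adamts9, chr6:92943535-92943784, minus strand: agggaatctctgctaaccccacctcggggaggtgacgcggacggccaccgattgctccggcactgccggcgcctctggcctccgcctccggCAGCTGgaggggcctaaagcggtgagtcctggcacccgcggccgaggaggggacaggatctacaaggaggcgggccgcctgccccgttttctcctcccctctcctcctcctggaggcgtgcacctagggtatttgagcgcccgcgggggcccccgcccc
Itgb8, chr12:119238277-119238526, minus strand: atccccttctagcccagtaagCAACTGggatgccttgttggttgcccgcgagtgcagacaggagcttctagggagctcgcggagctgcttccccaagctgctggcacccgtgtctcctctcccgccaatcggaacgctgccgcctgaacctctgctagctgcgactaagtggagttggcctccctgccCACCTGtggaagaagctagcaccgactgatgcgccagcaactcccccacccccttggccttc
Col6a4, chr9:106096692-106096941, minus strand: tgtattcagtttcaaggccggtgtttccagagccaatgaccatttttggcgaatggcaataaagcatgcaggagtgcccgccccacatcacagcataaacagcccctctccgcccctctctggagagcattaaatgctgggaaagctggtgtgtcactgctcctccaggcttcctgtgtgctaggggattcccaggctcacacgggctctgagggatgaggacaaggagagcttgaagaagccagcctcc
The E-box reads the same on both strands. It was found in 4 of these 5 sequences, at 2 places each in *Lamb1*, *Adamts13* and *Itgb8* and at 1 in *Adamts9*, and these letters do not occur in the window of *Col6a4*. Of 21 tested members that were not called, 9 (42.9%) held it, and so did 66.2% of the 32851 promoters of the table in a window of the same length. The form CAGCTG, a subset of CANNTG found in 13% of all promoters, was seen in *Adamts9* alone among the 5, at 159 bases before the start. The matches describe the letters, not binding.

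Of the 63 members not tested, none had a mean of 1 RPKM. The libraries of the genotypes did not overlap in 35 of the 63 (55.6%), with the homozygous libraries higher in 17 and lower in 18, beside 31.3% of the 7154 genes of the table that were above 0 and not tested. The levels of these sets were not matched. The following 4 members were chosen after their values were seen, as examples with no test behind them. *Col25a1*, a transmembrane collagen of neurons, had 8 and 15 reads in the heterozygous and 39 and 46 reads in the homozygous libraries, which is 0.0924 and 0.109 RPKM against 0.321 and 0.450 RPKM. *Adamts17* was at 0.502 and 0.498 RPKM against 0.286 and 0.291 RPKM. *Itgb3*, a further partner of alpha v, was at 0.329 and 0.255 RPKM against 0.128 and 0.139 RPKM, from 22 and 27 reads against 12 and 11. *Itgad* had 0 and 0 reads against 7 and 7. When all genes of the table were tested by limma, none of these passed, with adjusted p of 0.135, 0.174, 0.168 and 0.0619 in that order. That fit called only 30 genes of the table higher and 14 lower, and *Lamb1* and *Adamts5* did not pass it either. It therefore cannot decide whether these 4 members differ. The 3 procollagen N-proteinases (*Adamts2*, *Adamts3*, *Adamts14*), which trim fibrillar procollagens, were all under the filter, and so were the 4 transmembrane collagens.

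Genes that work with the members were followed in lists of matrix partners, lecticans, collagen-making enzymes, other matrix proteases, integrin adaptors and the VEGF-C axis. The table held 92 such genes, of which 62 were tested, and 4 were called higher and 3 lower, 11.3% of those tested beside 6.33% of all genes. Among matrix partners, 18 of 24 were tested. *Vtn*, which encodes vitronectin, a ligand of alpha v integrins, was at 0.396 and 0.313 RPKM against 1.69 and 2.35 RPKM (log2 fold change 2.21, SE 0.283, adjusted p = 0.00361). It passed the filter through the homozygous libraries alone. *Smoc1*, a matricellular inhibitor of BMP signals, was at 40.1 and 40.7 RPKM against 76.9 and 78.4 RPKM (0.94, SE 0.0453, adjusted p = 5.41e-05). *Spock2*, a testican proteoglycan, rose by 0.69 (SE 0.0674, adjusted p = 0.00125) and *Nid2*, a linker of laminin to type IV collagen, by 0.66 (SE 0.12, adjusted p = 0.013) on the log2 scale.

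The fibrillins *Fbn1* and *Fbn2*, which form microfibrils, fell by 0.65 (SE 0.179, adjusted p = 0.048) and 0.80 (SE 0.16, adjusted p = 0.0177) on the log2 scale, from levels of at most 2.44 RPKM. Neither was called when any 1 of the 4 libraries was left out, with adjusted p from 0.08 to 0.145 for *Fbn1* and from 0.0582 to 0.0812 for *Fbn2*, while the call of *Nid2* held without heterozygous library 1 and not without heterozygous library 2 (adjusted p = 0.0714), homozygous library 1 (0.0811) or homozygous library 2 (0.11). *Agrn*, the highest matrix partner, was at 109.5 and 115 RPKM against 124 and 133 RPKM (0.19, SE 0.0526, adjusted p = 0.0459). Of 8 lecticans and link proteins 2 were tested. *Vcan*, which encodes versican, a substrate of the proteoglycanases, was called lower, at 8.91 and 8.97 RPKM against 5.21 and 4.79 RPKM (-0.83, SE 0.0748, adjusted p = 0.000869), and *Ncan* (neurocan), the highest, was at 43.5 and 46.4 RPKM against 52.3 and 52.8 RPKM (0.23, SE 0.0518, adjusted p = 0.0268).

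In the machinery shared by these proteins, 0 genes were called, beside the 6.33% of all genes, in lists so small that such a share gives few calls. This held for the 13 tested of the enzymes that make and crosslink collagen, for the 11 tested of other matrix proteases and their inhibitors, and for the 16 tested of the integrin adaptors and signalling genes. By the adjusted p alone, 2, 3 and 1 of them passed limma's test, 4, 5 and 4 had an unadjusted p under 0.05, and limma voom called 0 as well. *P4hb*, the highest of the first, was at 129 to 138 RPKM (0.08, SE 0.0414, adjusted p = 0.212), *Adam10*, the highest of the second, at 36.4 to 41.5 RPKM (-0.01, SE 0.0721, adjusted p = 0.949), and *Ddr1*, a collagen receptor with kinase activity and the highest of the third, at 124 to 143 RPKM (0.06, SE 0.0693, adjusted p = 0.611).

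Collagens, laminins and integrins are also made by vessels, mesenchyme and neural crest, so markers of these cells were read in the same libraries. Of 8 endothelial markers 2 reached 1 RPKM in a genotype mean and 0 were called by limma, while limma voom called 1 (*Esam*, at 2.14 and 2.44 against 0.995 and 1.58 RPKM), which had the only unadjusted p under 0.05. Their summed level ran from 4.89 to 6.08 RPKM in the heterozygous and from 4.51 to 5.63 RPKM in the homozygous libraries, with *Cdh5* at 0.542 to 0.630 RPKM throughout. Of 12 mesenchymal markers 2 were tested and 1, *Pdgfrb*, was called higher, at 1.17 and 1.43 RPKM against 2.48 and 2.50 RPKM. Among the untested ones, *Pdgfra* was at 0.834 and 0.656 RPKM against 0.420 and 0.380 RPKM. The homozygous libraries were also the lower ones without overlap in *Prrx1*, *Foxc1* and *Foxc2*, and the higher ones in *Prrx2* and *Dcn*. These values rest on few reads, 10 to 29 in a library for *Prrx1* and 2 to 17 for the others. Such a lack of overlap was seen in 31.3% of the 7154 genes above 0 that were not tested. The sum of the mesenchymal list ran from 13.7 to 15.4 and from 13.3 to 15.6 RPKM, most of it *Tcf15*, and *Twist1* and *Prrx1* stayed under 1 RPKM. Of 8 markers of neural crest, glia and dorsal root ganglion 4 were tested, 2 called higher and 1 lower, and their sum ran from 33.0 to 39.2 and from 43.4 to 47.5 RPKM, with *Sox10* at 0.255 and 0.603 against 0.680 and 0.781 RPKM. The 6 leukocyte markers summed to at most 1.00 RPKM and the 6 floor and roof plate markers to at most 0.884 RPKM in any library. Of 9 erythroid markers 3 were tested and 0 called by limma or limma voom, with 0 at an unadjusted p under 0.05, and they summed to 47.2 to 49.7 RPKM over the 4 libraries. The globin genes *Hba-a1*, *Hba-a2*, *Hbb-bt* and *Hbb-bs*, 4 of the 9, were at 0 in every library. Nearly all of the erythroid sum was *Hba-x*, *Hbb-y* and *Hbb-bh1*. The part of the *Pdgfrb*, neural crest, progenitor and neuron markers in the changes of the members was not tested.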

How the data were processed

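RNA of GFP+ cells from 2 genotypes was read in 4 libraries, grouped by the genotype and replicate in the labels. The authors aligned reads to mm10 with TopHat2 2.1.0, summed them per RefSeq gene (featureCounts) and scaled the counts by TMM in edgeR 3.6.8. Their table gives RPKM of 24421 genes, and no other scaling was applied to what the authors deposited. Whether counting used strand is not given in the sources used here.

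Genes with a mean of at least 1 RPKM in either genotype (12046) entered the comparison on log2(RPKM + 0.1) by lmFit and eBayes with a trend in limma 3.58.1 under R 4.3.3. The test was two-sided, and p-values were adjusted over all of them by Benjamini-Hochberg. Calls needed an adjusted p below 0.05 with a 1.5-fold change. The test and the recovery of reads were tested on simulated data. Reads were recovered from the RPKM steps for 19200 of 19200 genes above 0, and 71.8% of the 18791 exon lengths this gave were within 5% of the annotation. Reads of *Itgb8* could not be fixed and are not given. Low reads limit the precision, which covers counting error only. Tables were handled in Python 3.11.15 with numpy 2.4.6 and pandas 2.3.3, and plots drawn in matplotlib 3.10.9.

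The members and lists were chosen with earlier results of these data known. Named were every member called, the highest tested member of each group, known chain partners of named members, *Adamts1* beside *Adamts5*, the VEGF-C axis of *Ccbe1*, members passing the adjusted p short of the fold, members with 3 or fewer reads as counts, and, of related lists, called genes and the highest of each. Coordinates are from RefSeq on GRCm38, and shared exon bases from GENCODE vM21. Alternatives were pseudocounts of 1 and 0.01, other filters, scalings and tests, a replicate block and leaving out each library. A fit of the recovered reads by limma voom and a minimum of 20 reads in a library were chosen after seeing the data.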

Additional observations from a re-analysis of the deposited data

How the results depend on the processing

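The calls of *Ccbe1* held under all 15 alternatives, and those of *Lamb1*, *Adamts5*, *Adamts13* and *Col6a4* under all but 1, the test of every gene of the table without a filter. There 1 member was called higher and 0 lower (limma, 106 members), 1 related gene was called higher and 0 lower, and *Prdm13* had the log2 fold change of 1.40 with an adjusted p of 0.0619; 30 genes of the table were called higher and 14 lower against 440 and 322. With a pseudocount of 1, 1 member and 1 related gene were called lower, beside 221 genes of the table, and 4 and 3 were called higher, beside 334. When each library was left out in turn, 1 to 3 members and 1 to 1 related genes were called lower, 4 to 4 members and 3 to 4 related genes higher, and 258 to 437 genes of the table higher and 212 to 266 lower. The median change of the members ran from 0.0126 to 0.0579, the latter without homozygous library 2, beside -0.01 with all libraries. The lone library left in a genotype was assumed to vary like the others. The cause of these losses was not tested. No called change reversed.

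The replicate numbers did not pair the libraries: deviations of libraries with the same number correlated by 0.0475 over 12046 genes. With the replicate block, 5 members were called higher and 5 lower, and *Fbn1* had an adjusted p of 0.0556. The planned edgeR test was not run, since the deposited unit is RPKM; limma voom on the recovered reads called 5 members higher and 5 lower. The 63 members under 1 RPKM were left out by that filter, and 38 of the 106 members had under 20 reads in every library.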
